A study of Mus musculus with 8 samples.

Results

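Tumor tissue of Fah-/- mice after 12 weeks of moderate chronic liver injury (MCLI), 2 samples called the C 12w group, was compared by RNA sequencing with liver of Fah-/- mice after 8 weeks of MCLI, 3 samples called the C 8w group. These 5 samples were chosen by their labels from 8 in the series. The labels give tumor as the tissue of both C 12w samples, here called 2e and 3e, and liver as that of the 3 C 8w samples, 1a, 2a and 3a. All samples came from Fah-/- mice of strain background 129S4, and in MCLI the mice received NTBC in drinking water at 2.5% of the standard 7.5 mg/L. Liver around the tumors at 12 weeks and tumors at 8 weeks were not among the samples, so that tumor tissue and the 4 additional weeks cannot be told apart. The labels give neither age nor sex of the mice, and nothing in them says whether 1 tumor or several went into a sample. The study speaks of the samples as individual animals, while the labels name no animal. The p-values below measure only the spread between these samples. They borrow information on that spread across genes and assume that both groups vary alike. The tumors in fact differed from each other more than the C 8w samples did, as described below.

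FAH is the last enzyme of tyrosine breakdown, and without it toxic intermediates build up in hepatocytes. NTBC blocks an enzyme upstream and so keeps the intermediates from forming. Adult hepatocytes seldom divide, they secrete most plasma proteins, and their metabolic work is divided along the liver lobule, where Wnt signals near the central vein maintain a set of pericentral enzymes. Liver tumors are known for renewed division, for fetal genes such as Afp and for loss of parts of the adult program.

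Expression was given as FPKM (fragments mapped to a gene, scaled for its length and for the size of the library). Read counts and depth are not known from such values. They summed to between 324735 and 378915 per sample, and between 9797 and 10658 genes had an FPKM of at least 1. Among hepatocyte genes, Ttr, which encodes transthyretin, had an FPKM of 5026 in 2e and 3299.9 in 3e, against 6614, 5349.8 and 5418 in C 8w. Not every low value can be read as low expression. Gapdh, a gene every cell uses, had between 0.0980 and 0.247, and Alb, the albumin gene, was listed at 0 in all 5 samples, both chosen after their values were seen. The labels' extraction text names retinas. The photoreceptor genes Crx and Rcvrn were listed at 0 in all 5 samples. Fah itself, the gene that all mice lack, had an FPKM of 14.4 in 2e and 13.5 in 3e, against 16.8, 16.5 and 15.6 in C 8w. No mouse with an intact Fah gene was sequenced, so this is no check of the deletion.

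Of 22504 genes listed, 10459 reached an FPKM of 1 in 2 or more of the 5 samples and were compared as log2(FPKM + 1). A gene is called higher or lower here when its adjusted p in limma (Benjamini-Hochberg, over all 10459 genes) was under 0.05. C 12w was called higher for 1090 genes (10.4%) and lower for 603 (5.77%), together 1693 (16.2%). Of the called genes 207 had passed the floor through C 12w alone, out of 321 such genes, and 152 genes had passed it through C 8w alone. At an unadjusted p under 0.05 there were 3872. For every called gene, both tumor samples lay beyond the 3 C 8w samples and on the same side. Apart from any test, both tumor samples lay above every C 8w sample for 3732 genes (35.7%) and below every one for 2042 (19.5%). The 2 tumor samples lay on opposite sides of the C 8w range for 1403 genes (13.4%).

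The median gene was 0.12 higher in C 12w on the log2 scale, 0.052 in 2e and 0.18 in 3e, and every difference below is to be read beside that shift. When the samples were rescaled by median ratios the shift was 0.0049, and 854 genes were called higher and 909 lower, so that the share of calls that were higher went from 64.4% to 48.4%. Quantile normalization gave 803 and 874. The number of calls also rested on single samples. Without 1a, 2a or 3a, limma called 155, 193 and 257 genes. Without 2e it called 5151 and without 3e 3022, in fits where the lone tumor sample is assumed to vary like C 8w. There were 142 genes, 95 higher and 47 lower, that were called under every one of 15 alternative fits in which they were tested. The mitosis list below held 23 of the 95. The genes named below that belong to the 142 are said to hold under every alternative, though a gene with over 2% shared sequence was not tested in the fit limited to genes below that share.

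**Figure D1:**
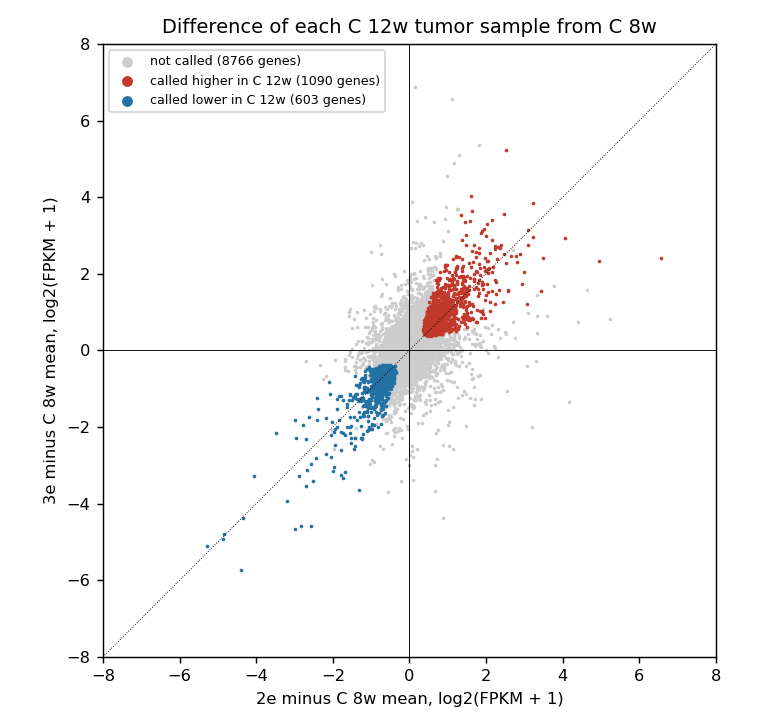
Each point is 1 of the 10459 genes, placed by its difference from the C 8w mean in tumor sample 2e (x axis) and in 3e (y axis), both on the log2(FPKM + 1) scale, with the 1090 genes called higher in red, the 603 called lower in blue and the others in grey. Called genes lie in the 2 quadrants where both tumor samples moved the same way, and grey points far along a single axis are genes that were far from C 8w in 1 tumor sample only.

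Genes of mitosis were higher in both tumor samples. The floor on FPKM had kept 31 of the list's 38 remaining members through C 12w alone, so the list was counted without a floor. Over the 17171 genes then tested, 36 of the 40 mitosis genes were called higher and 0 lower, against 3.52% of all genes higher and 2.18% lower. The counts of the other lists are to be read against the same shares, 10.4% higher and 5.77% lower with the floor and 3.52% and 2.18% without it. In 39 of the 40 both tumor samples lay above every C 8w sample, which held for 29.5% of all genes. The median log2 difference of the list was 1.73 against 0.036 for all genes. Cdc20, which activates the complex that ends mitosis, had an FPKM of 14.5 in 2e and 11.9 in 3e, against 0.607, 0.717 and 0.652 in C 8w (log2 difference 3.09, SE 0.13, limma adjusted p = 0.0014). Mki67, the proliferation marker Ki-67, had an FPKM of 4.34 in 2e and 6.24 in 3e, against 0.169, 0.372 and 0.208 in C 8w (log2 difference 2.32, SE 0.17, limma adjusted p = 0.0031). Cdk1, the kinase that drives entry into mitosis, had an FPKM of 5.41 in 2e and 7.7 in 3e, against 0.552, 0.795 and 0.58 in C 8w (log2 difference 2.19, SE 0.17, limma adjusted p = 0.00321). In each of the 3 genes both tumor samples were several times the highest C 8w sample, and all 3 held under every alternative. Top2a, which untangles DNA before division, differed more between the tumors, with an FPKM of 4.57 in 2e and 12.4 in 3e, against 0.224, 0.54 and 0.343 in C 8w (log2 difference 2.66, SE 0.36, limma adjusted p = 0.0102), and was not called with any 1 of the C 8w samples left out. Prc1, which bundles spindle microtubules, and Cdca3 held under every alternative as well, with log2 differences of 2.57 and 2.56.

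Genes of DNA replication had smaller differences, all of the called ones upward. Of 38 list members tested without a floor, 14 were called higher and 0 lower, and the median log2 difference was 0.77. With the floor 19 of 33 were called higher. Rrm2, a subunit of the enzyme that makes deoxynucleotides, had an FPKM of 7.15 in 2e and 18.2 in 3e, against 1.05, 1.17 and 1.38 in C 8w (log2 difference 2.51, SE 0.35, limma adjusted p = 0.0107). The helicase subunit genes Mcm6 and Mcm5 had log2 differences of 2.15 and 1.92, and Mcm2, of the same helicase, had 5.68 in 2e and 6.95 in 3e against 3.51, 4.75 and 3.67 in C 8w (log2 difference 0.56, SE 0.16, limma adjusted p = 0.0628). Uhrf1, which helps to copy DNA methylation, had an FPKM of 2.12 in 2e and 2.73 in 3e, against 0.141, 0.227 and 0.308 in C 8w (log2 difference 1.48, SE 0.14, limma adjusted p = 0.00463) and held under every alternative. In all 5 of these genes both tumor samples lay above C 8w, and 3e was the higher tumor.

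The start of G1 and its brakes moved less uniformly. In this list 6 of 18 genes were called higher and 1 lower, with a median log2 difference of 0.57. Cdk2, the kinase of the G1 to S transition, had an FPKM of 4.01 in 2e and 5.48 in 3e, against 2.64, 2.86 and 2.25 in C 8w (log2 difference 0.67, SE 0.16, limma adjusted p = 0.0404). Cdk4 and Cdk6, the kinases of early G1, were above C 8w in both tumors without a call, with log2 differences of 0.43 and 0.69. Among inhibitors of these kinases, Cdkn2c rose by 1.2 on the log2 scale and Cdkn1c fell, with an FPKM of 6.09 in 2e and 9.0 in 3e, against 15.1, 14.1 and 18.4 in C 8w (log2 difference -1.0, SE 0.19, limma adjusted p = 0.025). Cdkn1a, which encodes p21, had an FPKM of 41.4 in 2e and 43.2 in 3e, against 39.5, 46 and 67 in C 8w (log2 difference -0.22, SE 0.23, limma adjusted p = 0.509), and both tumor samples lay within the C 8w range. Trp53, the p53 gene, had 13.9 in 2e and 15.2 in 3e against 15.7, 16.3 and 17.8 in C 8w (log2 difference -0.17, SE 0.12, limma adjusted p = 0.314). Of 25 p53 target genes 1 was called higher and 1 lower, shares below those of all genes (10.4% higher and 5.77% lower), with a median log2 difference of -0.22. The gene called lower was Zmat3, at -0.79, and the one called higher was Pmaip1, which encodes the proapoptotic protein Noxa, at 1.34. Without a floor neither list had a gene called lower, 4 of 19 G1 genes were called higher and 0 of 25 p53 targets. The p53 counts hold for these 25 genes only. Gadd45a, a growth arrest gene, was not among them and was called higher with the floor, at 2.1.

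**Figure D2:**
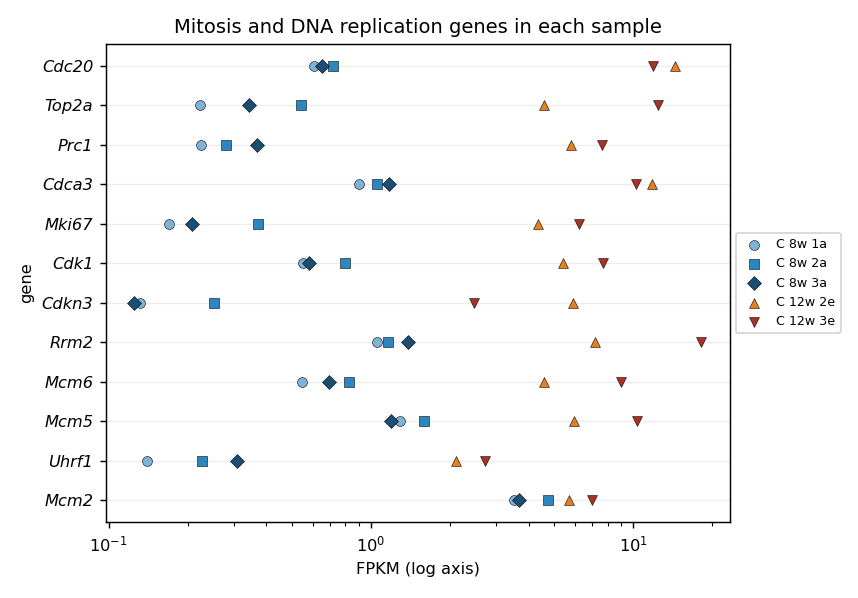
FPKM (x axis, logarithmic) of 12 mitosis, cell cycle and DNA replication genes (y axis) in each of the 5 samples, with blue symbols for the C 8w samples and orange and red triangles for tumor samples 2e and 3e. In all 12 genes both triangles lie to the right of the 3 blue symbols.

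Promoters of the called mitosis genes often held short sequence motifs. As 37 of the 38 kept members were called, their motif shares describe the mitosis list and add nothing on the tumors. The shares are set beside all promoters, and genes without a call were not examined separately. The letters TTTGAA (the core of a cell cycle homology region) and CCAAT were searched on both strands in RefSeq promoters of 300 bases, from 250 before the start of transcription to 50 after it (build GRCm38.p6). Of the 37 mitosis genes called higher with the floor, 31 were matched to 33 promoters. TTTGAA occurred in 78.8% of these promoters and in 17.9% of all 32851. CCAAT occurred in 81.8% against 37.4%. Of the 19 called DNA replication genes 17 were matched to 22 promoters, of which 9.09% held TTTGAA and 59.1% CCAAT. The letters TTTGGCGC or TTTCCCGC, forms of the E2F site, occurred in 22.7% of the replication promoters, 3.03% of the mitosis promoters and 1.56% of all. These shares are a description with no test, and a match is not evidence of binding. The 250 bases before the start are shown for the 3 mitosis genes and the 2 replication genes with the largest differences among those with a single promoter in the table, with the matches in capitals on the strand of the gene, where ATTGG and TTCAAA are matches on the other strand.
Cdc20, chr4:118437344-118437593, strand minus: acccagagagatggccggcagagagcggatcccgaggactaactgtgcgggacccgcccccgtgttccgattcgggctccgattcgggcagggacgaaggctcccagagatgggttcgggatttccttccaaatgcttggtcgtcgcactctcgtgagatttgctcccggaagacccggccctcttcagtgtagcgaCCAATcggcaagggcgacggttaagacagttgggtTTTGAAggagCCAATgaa
Top2a, chr11:99024190-99024439, strand minus: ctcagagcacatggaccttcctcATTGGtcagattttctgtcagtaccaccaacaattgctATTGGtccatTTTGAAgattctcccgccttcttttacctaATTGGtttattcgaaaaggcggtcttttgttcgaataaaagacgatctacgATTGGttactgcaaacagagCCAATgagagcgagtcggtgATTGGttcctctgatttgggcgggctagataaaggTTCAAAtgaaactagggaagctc
Cdca3, chr6:124829926-124830175, strand plus: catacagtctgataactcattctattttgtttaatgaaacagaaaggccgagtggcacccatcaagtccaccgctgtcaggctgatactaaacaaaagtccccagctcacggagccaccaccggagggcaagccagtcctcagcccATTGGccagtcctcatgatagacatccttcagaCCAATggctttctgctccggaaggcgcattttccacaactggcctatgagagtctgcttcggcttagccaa
Rrm2, chr12:24708004-24708253, strand plus: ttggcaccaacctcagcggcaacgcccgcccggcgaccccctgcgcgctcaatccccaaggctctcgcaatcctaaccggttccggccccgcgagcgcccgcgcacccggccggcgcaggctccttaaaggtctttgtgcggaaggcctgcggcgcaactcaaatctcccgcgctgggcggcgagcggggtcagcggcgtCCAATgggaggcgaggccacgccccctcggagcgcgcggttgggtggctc
Mcm6, chr1:128359706-128359955, strand minus: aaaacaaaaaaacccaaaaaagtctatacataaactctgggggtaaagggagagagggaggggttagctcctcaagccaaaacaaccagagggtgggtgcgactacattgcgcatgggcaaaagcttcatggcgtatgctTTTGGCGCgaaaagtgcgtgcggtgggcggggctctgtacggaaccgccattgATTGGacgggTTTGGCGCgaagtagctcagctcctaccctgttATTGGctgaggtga

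In Cdc20, TTTGAA began 18 bases before the start and CCAAT 53 and 8 bases before it. Top2a had 8 matches in its 250 bases, the nearest TTTGAA 23 bases before the start. Cdca3 had 2 CCAAT matches and no TTTGAA in these bases. The Mcm6 promoter held TTTGGCGC at 110 and at 47 bases before the start, while Rrm2 had a single CCAAT match.

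Some fetal and tumor-associated liver genes were higher, with unequal values in the 2 tumors. Of 25 list members kept, 8 were called higher and 0 lower, against 10.4% and 5.77% of all genes, and the median log2 difference was 0.97. Without a floor, 3 of 37 were called higher, against 3.52% of all genes. Afp, the alpha-fetoprotein gene, had an FPKM of 391 in 2e and 177 in 3e, against 19.3, 15.4 and 37.6 in C 8w (log2 difference 3.49, SE 0.47, limma adjusted p = 0.00977), and its log2 difference was between 2.92 and 4.06 when a sample was left out, with the call lost without 1a or 2a. Slpi, a secreted protease inhibitor, had an FPKM of 4.89 in 2e and 6.34 in 3e, against 0.378, 0.304 and 0.73 in C 8w (log2 difference 2.17, SE 0.18, limma adjusted p = 0.00349) and held under every alternative. The largest difference of all called genes was that of Tff3, a secreted trefoil peptide, with an FPKM of 227 in 2e and 11.7 in 3e, against 0.999, 1.03 and 2.37 in C 8w (log2 difference 4.49, SE 1.12, limma adjusted p = 0.0464). Both tumors were above C 8w, but the difference was 6.57 in 2e and 2.41 in 3e, and without a floor or after rescaling Tff3 was no longer called. Sprr1a, a cornified envelope gene, had an FPKM of 127 in 2e and 20.2 in 3e, against 1.7, 2.34 and 7.08 in C 8w (log2 difference 3.64, SE 0.82, limma adjusted p = 0.0361). It was likewise not called without a floor. Spink1 and Bex1 were above C 8w in both tumors and far higher in 3e, with no call, at 3.2 and 3.59. Gpc3, the oncofetal glypican gene, was on opposite sides of C 8w, with an FPKM of 39.3 in 2e and 157 in 3e, against 91.2, 80.2 and 92.3 in C 8w (log2 difference -0.15, SE 0.53, limma adjusted p = 0.851).

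Markers of bile duct and progenitor cells were mostly low. Of 30 genes, 10 passed the floor, and 2 of these were called higher and 1 lower. Both called higher, Sox9 and Cldn4, had passed it through C 12w alone, and without a floor 0 of 30 were called higher and 1 lower. Sox9, a transcription factor of duct and progenitor cells, had an FPKM of 3.61 in 2e and 19.9 in 3e, against 0.54, 0.959 and 0.947 in C 8w (log2 difference 2.44, SE 0.59, limma adjusted p = 0.0435), and after quantile normalization it was not called. Krt19, the duct keratin, had an FPKM of 0.798 in 2e and 1.06 in 3e, against 0.408, 0.354 and 1.43 in C 8w (log2 difference 0.21, SE 0.28, limma adjusted p = 0.612), and its tumor values lay within the C 8w range. Aqp1, a water channel of duct and vessel cells, was lower, with 25.6 in 2e and 16.5 in 3e against 50.9, 51.8 and 53 in C 8w (log2 difference -1.3, SE 0.19, limma adjusted p = 0.013). The summed FPKM of the whole list was 93.3 in 2e and 408 in 3e, and between 84.8 and 108 in C 8w. Without Spp1, the osteopontin gene, it was 71.1 in 2e and 97.8 in 3e, against 76.6 to 95.9.

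Several of the largest rises lay outside the gene lists and were seen in both tumors. Tnfrsf12a, the receptor of the cytokine TWEAK, had an FPKM of 94.6 in 2e and 98.9 in 3e, against 8.25, 11.5 and 11.3 in C 8w (log2 difference 3.12, SE 0.17, limma adjusted p = 0.0024). Inhbe, a hepatic activin subunit, had an FPKM of 27.4 in 2e and 21.5 in 3e, against 3.16, 2.02 and 1.95 in C 8w (log2 difference 2.92, SE 0.20, limma adjusted p = 0.0031). Slc10a2, the bile acid transporter of intestine and bile duct, was near 0 in C 8w, with an FPKM of 4.6 in 2e and 11 in 3e, against 0.0245, 0.00603 and 0.0224 in C 8w (log2 difference 3.01, SE 0.31, limma adjusted p = 0.00557). All 3 held under every alternative. Rgs16, a regulator of G protein signaling, had the largest fall of the called genes outside the lists, with an FPKM of 1.8 in 2e and 3.79 in 3e, against 41.1, 38.4 and 59.3 in C 8w (log2 difference -3.66, SE 0.29, limma adjusted p = 0.00322).

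Genes with higher expression in female than in male mouse liver made up 9 of the 10 largest falls among called genes. Of 34 such genes kept, 16 were called lower and 2 higher, and the median log2 difference was -1.35, -0.97 in 2e and -1.56 in 3e. Without a floor 11 of 41 were called lower and 0 higher, with a median of -0.55. Sult2a1, a sulfotransferase of bile acids and steroids, had an FPKM of 29.1 in 2e and 11 in 3e, against 679, 605 and 631 in C 8w (log2 difference -5.07, SE 0.38, limma adjusted p = 0.0031). Cyp3a16 had an FPKM of 0.561 in 2e and 0.597 in 3e, against 47.5, 53.3 and 32.5 in C 8w (log2 difference -4.82, SE 0.22, limma adjusted p = 0.0014). In both genes the highest tumor value was a small part of the lowest C 8w value, and together with Sult2a3, at -4.89, they held under every alternative. Sult3a1 and Cyp17a1, the latter an enzyme of steroid synthesis, fell by 4.37 and 3.57 on the log2 scale and were not called without a floor. Shared sequence with other genes was 33.2% for Sult2a1, 8.36% for Sult2a3 and 10.7% for Cyp3a16 (the share of a gene's 50-base windows found in another gene), so that reads of close family members may have been divided among them. The 2 genes called higher were Cyp2g1 and Vldlr, at 0.79 and 0.57. A1bg lay on opposite sides of C 8w in the tumors, with an FPKM of 6.22 in 2e and 0.178 in 3e, against 2.47, 1.22 and 1.29 in C 8w (log2 difference 0.16, SE 0.72, limma adjusted p = 0.878).

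Of 18 male-biased genes kept, 4 were called higher and 1 lower, against 10.4% and 5.77% of all genes, and without a floor 2 of 30 higher and 0 lower, against 3.52% and 2.18%. Mup20, a major urinary protein with 50.5% shared sequence, had an FPKM of 13.8 in 2e and 95.2 in 3e, against 1.88, 1.26 and 1.59 in C 8w (log2 difference 3.88, SE 0.73, limma adjusted p = 0.0231). Mup3, of the same family and with 13.3% shared sequence, had an FPKM of 32.3 in 2e and 50.3 in 3e, against 3.81, 1.68 and 2.44 in C 8w (log2 difference 3.54, SE 0.29, limma adjusted p = 0.00349). The family did not move as one. Mup9, Mup6 and Mup17, which were not in the list and are named after their values were seen, were called lower, at -2.96, -1.21 and -1.0, and Mup9 held under every alternative. Of the other male-biased genes, C9 and Bcl6 were called higher and Cyp2d9 lower. Mup3 held under every alternative and Mup20 was not called without a floor. The Y-linked genes Ddx3y, Eif2s3y, Kdm5d, Uty, Usp9y and Zfy1 were listed at 0 in all 5 samples, as was Alb, so that these zeros cannot be read as the sex of the mice. The part of sex or of growth hormone in these differences was not tested. Bcl6, a transcriptional repressor of female-biased genes, had an FPKM of 10.7 in 2e and 17.2 in 3e, against 3.19, 4.93 and 5.29 in C 8w (log2 difference 1.44, SE 0.26, limma adjusted p = 0.021), and Cux2, an activator of them, had an FPKM of 0.767 in 2e and 0.218 in 3e, against 3.96, 2.6 and 2.56 in C 8w (log2 difference -1.44, SE 0.23, limma adjusted p = 0.0153). With any 1 of the C 8w samples left out, neither was called.

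The cytochrome P450 families 1 to 4, which oxidise drugs, steroids and fatty acids, had 15 of 49 genes called lower and 6 higher, with a median log2 difference of -0.46. Without a floor 8 of 52 were called lower and 1 higher. The 9 members with at most 2% shared sequence had a median of 0.17, so the direction of the list as a whole rested on genes with close copies. Cyp2e1 had an FPKM of 289 in 2e and 217 in 3e, against 1672, 1559 and 1916 in C 8w (log2 difference -2.77, SE 0.23, limma adjusted p = 0.00349), with 3.91% shared sequence. Cyp2c37, with 30.1% shared sequence, had an FPKM of 6.46 in 2e and 3.18 in 3e, against 59.5, 48.8 and 37.4 in C 8w (log2 difference -3.13, SE 0.30, limma adjusted p = 0.00466). Both held under every alternative in which they were tested, which for neither included the fit of genes with at most 2% shared sequence. Cyp3a11 was above C 8w in 2e and far below it in 3e, with an FPKM of 1449.8 in 2e and 123 in 3e, against 921, 804 and 927 in C 8w (log2 difference -1.06, SE 0.95, limma adjusted p = 0.452). Of 46 conjugating enzymes, which add sulfate, glucuronate or glutathione to foreign compounds, 15 were called lower and 2 higher, and without a floor 12 of 52 lower and 1 higher. Nr1i3, the nuclear receptor CAR, which induces many of these enzymes, had an FPKM of 7.5 in 2e and 5.69 in 3e, against 33, 25.1 and 27.1 in C 8w (log2 difference -1.95, SE 0.17, limma adjusted p = 0.00383) and held under every alternative, with 63.6% shared sequence. Hnf4a, the main hepatocyte transcription factor, had an FPKM of 104 in 2e and 99.2 in 3e, against 93.2, 91.3 and 90.4 in C 8w (log2 difference 0.15, SE 0.12, limma adjusted p = 0.403).

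**Figure D3:**
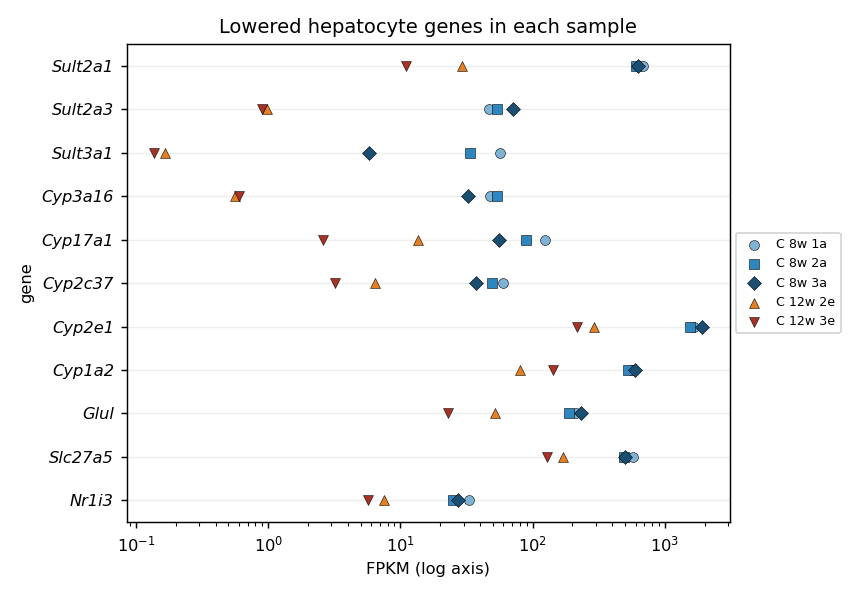
FPKM (x axis, logarithmic) of 11 hepatocyte genes called lower in C 12w (y axis) in each of the 5 samples, with blue symbols for C 8w and orange and red triangles for tumor samples 2e and 3e. Both triangles lie to the left of all 3 blue symbols in every one of these genes, which were chosen for being called.

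Some of the genes kept up by Wnt signals around the central vein were lower in C 12w. Of 21 kept, 6 were called lower and 0 higher, without a floor 4 of 24 and 0, and the list's median was -0.21 in 2e and -1.57 in 3e. Glul, the glutamine synthetase of the hepatocytes next to the central vein, had an FPKM of 52.2 in 2e and 22.7 in 3e, against 214, 188 and 234 in C 8w (log2 difference -2.58, SE 0.34, limma adjusted p = 0.00953). It was not called once a C 8w sample was left out, although its log2 difference was never nearer 0 than -1.995 with any sample left out. Cyp1a2 had an FPKM of 80.7 in 2e and 143 in 3e, against 558, 522 and 590.4 in C 8w (log2 difference -2.36, SE 0.26, limma adjusted p = 0.00643). Axin2, a direct Wnt target, had 1.33 in 2e and 0.726 in 3e against 1.75, 0.88 and 1.23 in C 8w (log2 difference -0.17, SE 0.22, limma adjusted p = 0.591). Of 16 periportal genes, those of the other end of the lobule, 0 were called lower and 1 higher, which was Cdh1, the E-cadherin gene, at 0.79. Cps1, the first enzyme of the urea cycle, was above C 8w in 2e and below it in 3e, with an FPKM of 886 in 2e and 356 in 3e, against 548, 523 and 458 in C 8w (log2 difference 0.15, SE 0.39, limma adjusted p = 0.803).

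Genes of fatty acid oxidation were called in 1 direction only. Of 30 genes, 14 were called lower and 0 higher, with a median log2 difference of -0.62, -0.55 in 2e and -0.73 in 3e. Without a floor 4 of the 30 were called lower. Acot3, a peroxisomal thioesterase, had an FPKM of 2.31 in 2e and 4.25 in 3e, against 29.4, 21.2 and 24.3 in C 8w (log2 difference -2.62, SE 0.24, limma adjusted p = 0.00416) and held under every alternative. Both tumors lay below C 8w. Among 36 genes of fatty acid and sterol synthesis 3 were called lower (8.33%, against 5.77% of all genes) and 0 higher, and without a floor 1 of 38 lower. The list's median nevertheless lay above 0, at 0.32, with 0.44 in 2e and 0.10 in 3e, and 26 of the 36 differences were positive. Scd1, the stearoyl-CoA desaturase gene, was far above C 8w in 2e only, with an FPKM of 2145 in 2e and 167 in 3e, against 64.6, 105 and 146 in C 8w (log2 difference 2.58, SE 1.02, limma adjusted p = 0.128).

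Bile acid genes were called lower in 5 of 27, against 5.77% of all genes, and higher in 0. Without a floor they were called lower in 2 of 28, against 2.18%, and higher in 0. These counts are for the list's members. The bile acid transporter gene Slc10a2, called higher at 3.01, was not in the list. Slc27a5, which joins bile acids to coenzyme A, had an FPKM of 168 in 2e and 129 in 3e, against 574, 494 and 499.9 in C 8w (log2 difference -1.82, SE 0.19, limma adjusted p = 0.00567). The uptake transporters Slc10a1 and Slco1b2 fell by 1.52 and 1.86 on the log2 scale, and Cyp7a1, the rate-limiting enzyme of bile acid synthesis, had 14.4 in 2e and 3.17 in 3e against 35.3, 20.8 and 18.1 in C 8w with no call (log2 difference -1.63, SE 0.57, limma adjusted p = 0.0982). Of 38 genes of amino acid breakdown and the urea cycle 7 were called lower and 2 higher, and without a floor 5 and 0. The tumors differed on this list, with medians of 0.064 in 2e and -0.67 in 3e and 10 genes on opposite sides of C 8w. Hpd, the enzyme of tyrosine breakdown that NTBC blocks, had an FPKM of 373 in 2e and 209 in 3e, against 660.5, 551 and 604 in C 8w (log2 difference -1.11, SE 0.28, limma adjusted p = 0.0475), and the call was lost without a floor and under either rescaling. Of 18 genes of gluconeogenesis and glycogen 3 were called lower and 1 higher. Lpin1, a phosphatidate phosphatase, fell by 2.19 on the log2 scale. Of 39 genes of secreted hepatocyte proteins 3 were called higher (7.69%, against 10.4% of all genes) and 1 lower (2.56%, against 5.77%), and without a floor 3 of 39 higher, against 3.52% of all genes, and 0 lower. Among them were the complement genes C8a, at 2.96, and C9, at 2.19, and Fetub, a fetuin that was called lower at -0.75.

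Stress and injury lists differed in how well the tumors agreed. In the unfolded protein and integrated stress response 11 of 28 genes were called higher and 0 lower, with a median of 0.59, 0.57 in 2e and 0.59 in 3e. Without a floor 5 of 29 were called higher. Nupr1, a stress-induced chromatin protein, had an FPKM of 9.39 in 2e and 4.33 in 3e, against 0.117, 0.379 and 0.417 in C 8w (log2 difference 2.52, SE 0.29, limma adjusted p = 0.00732). Atf3, a stress-induced transcription factor, had an FPKM of 35.7 in 2e and 8.91 in 3e, against 2.2, 2.47 and 2.54 in C 8w (log2 difference 2.49, SE 0.51, limma adjusted p = 0.0293). Psat1, an enzyme of serine synthesis, and Chac1, which degrades glutathione, rose by 2.47 and 2.82, and Atf4, the factor at the centre of the response, had 92.9 in 2e and 152 in 3e against 69.6, 59.6 and 70.4 in C 8w (log2 difference 0.83, SE 0.23, limma adjusted p = 0.0591). Targets of Nrf2, the factor that responds to electrophiles, parted the tumors. The median of the 33 genes was -0.80 in 2e and 0.26 in 3e, with the tumors on opposite sides of C 8w in 14, and 1 was called higher and 2 lower, and without a floor 1 and 0. Hmox1, the heme oxygenase gene, was the one called higher, at 1.11. Nqo1, a classical target, had an FPKM of 98.6 in 2e and 342 in 3e, against 155, 178 and 170.2 in C 8w (log2 difference 0.13, SE 0.49, limma adjusted p = 0.855). Acute phase genes had medians of 0.33 in 2e and -0.51 in 3e, with 5 of 28 called higher and 3 lower. Without a floor the balance turned, with 0 called higher and 2 lower. Cxcl1, a chemokine for neutrophils, rose by 1.86, while Orm2 and Saa4 fell by 1.94 and 1.69. Orm3 had an FPKM of 0.687 in 2e and 0.184 in 3e, against 3.53, 5.9 and 4.21 in C 8w (log2 difference -1.95, SE 0.24, limma adjusted p = 0.00796) and held under every alternative. Among 24 Hippo pathway and YAP target genes 5 were called higher (against 10.4% of all genes) and 1 lower (against 5.77%), but without a floor 1 of 31 in each direction, near the 3.52% and 2.18% of all genes. Ccn2, the best known target, had 1.83 in 2e and 25.9 in 3e against 4.02, 2.45 and 5.11 in C 8w (log2 difference 0.88, SE 0.89, limma adjusted p = 0.502). Other lists had few calls, to be read beside the 10.4% higher and 5.77% lower among all genes. Of 29 interferon-stimulated and MHC genes 3 were called higher and 0 lower, and without a floor 1 of 32 and 0. Of 15 Bcl2 family genes 2 were called higher and 1 lower, and without a floor 0 of 18 and 1. Of 20 growth hormone and IGF axis genes 3 were called higher and 0 lower, and without a floor 0 of 22 and 1. Wwtr1, the Hippo pathway gene that encodes TAZ, rose by 0.98, and Igf2r and Egfr, receptors for IGF2 and for epidermal growth factor, by 0.89 and 0.86.

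**Figure D4:**
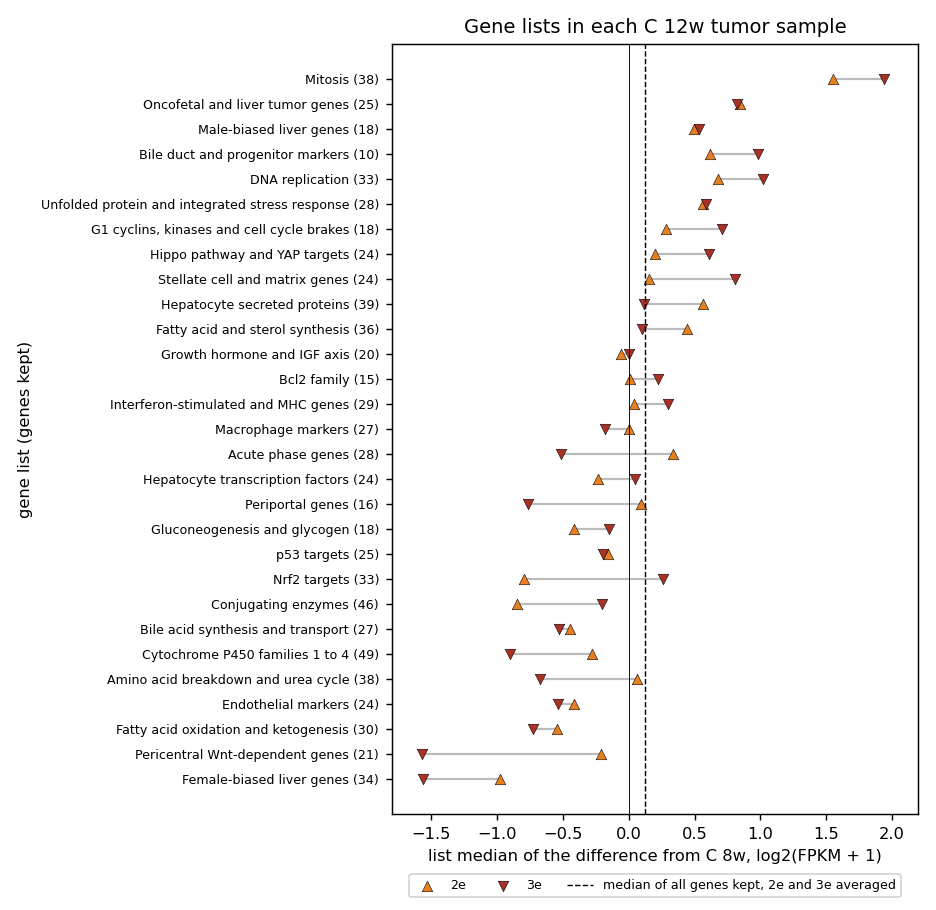
Median over each gene list (y axis, with the number of genes kept) of the difference from the C 8w mean on the log2(FPKM + 1) scale (x axis), as an orange triangle for tumor sample 2e and a red one for 3e, with a dashed line at 0.12, the median of all genes. The 2 triangles lie close together for the stress response list and far apart for the Nrf2, pericentral and periportal lists, and 31 of the 38 mitosis genes were kept through C 12w alone.

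Markers of other cell types were examined in the same samples. In bulk tissue fewer cells of a type and less RNA per cell cannot be told apart. Of 24 endothelial markers 11 were called lower and 0 higher (without a floor 3 of 26 and 0), and the list's summed FPKM was 108 in 2e and 95.0 in 3e, against 163 to 166 in C 8w. Clec4g and Stab2, of liver sinusoidal endothelium, fell by 1.52 and 0.83 on the log2 scale, while Pecam1, of all endothelium, had 3.45 in 2e and 3.82 in 3e against 3.19, 4.59 and 4.16 in C 8w (log2 difference -0.09, SE 0.16, limma adjusted p = 0.691). Of 27 macrophage markers 3 were called lower and 2 higher, together 18.5% against 16.2% of all genes, with a median log2 difference of -0.060. Their summed FPKM was 581 and 513 against 425 to 505, but without Cd9, which many other cells express, it was 461 and 387 against 402 to 479. Clec4f, the defining marker of Kupffer cells, had an FPKM of 20.2 in 2e and 10.8 in 3e, against 36.7, 36.7 and 33.2 in C 8w (log2 difference -1.21, SE 0.25, limma adjusted p = 0.0299), and Cd68, of all macrophages, had 12.5 in 2e and 7.4 in 3e against 6.41, 7.02 and 7.36 in C 8w (log2 difference 0.42, SE 0.21, limma adjusted p = 0.198). The monocyte chemokine gene Ccl2 had an FPKM of 6.29 in 2e and 8.14 in 3e, against 0.254, 0.494 and 0.527 in C 8w (log2 difference 2.52, SE 0.16, limma adjusted p = 0.00271) and held under every alternative, as did Cd9, at 2.11. Of 24 stellate cell and matrix genes 5 were called higher (against 10.4% of all genes) and 1 lower (against 5.77%), with sums of 213 and 397 against 196 to 219. Col1a1, a fibrillar collagen gene, had an FPKM of 2.97 in 2e and 8.29 in 3e, against 0.749, 0.849 and 1.46 in C 8w (log2 difference 1.61, SE 0.37, limma adjusted p = 0.0378), and Col4a1, of basement membranes, rose by 1.56. Without a floor 1 of 34 stellate and matrix genes was called higher and 1 lower, near the 3.52% and 2.18% of all genes. Lymphocyte and granulocyte markers were near the floor, with 5 of 30 kept, 0 called in either direction and sums of 30.03 and 12.9 against 14.1 to 40.03. The part of these cells in the other differences was not tested.

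The 2 tumors differed from each other far more than the C 8w livers did. A difference of at least 1 on the log2 scale between 2e and 3e was found for 710 genes (6.79%), 325 higher in 2e and 385 in 3e, while the range over the 3 C 8w samples reached 1 for 96 genes (0.918%). A single pair of tumors allows no test of these differences. Of the 1693 called genes, 79 differed by at least 1 between the tumors. Apoa4, an apolipoprotein gene, had an FPKM of 3800.4 in 2e and 83 in 3e, against 283, 188 and 180.4 in C 8w. It was above C 8w in 2e and below it in 3e, and 60.9% of its sequence was shared. Klhl13, a ubiquitin ligase adaptor, had an FPKM of 4.14 in 2e and 540.5 in 3e, against 3.44, 3.63 and 3.84 in C 8w. Igf2, a fetal growth factor gene with 62.1% shared sequence, had an FPKM of 656 in 2e and 29.9 in 3e, against 23.1, 9.37 and 20.5 in C 8w. In Klhl13 and Igf2 both tumors lay above C 8w, 1 of them far above, and neither gene was called. Spp1 had an FPKM of 22.2 in 2e and 311 in 3e, against 8.26, 8.51 and 11.8 in C 8w. Fgfbp1, which encodes a carrier of fibroblast growth factors, had an FPKM of 2.03 in 2e and 132 in 3e, against 0.403, 0.312 and 0.477 in C 8w. Both were above C 8w in both tumors and far higher in 3e than in 2e. Nnmt, a nicotinamide methyltransferase, had an FPKM of 42.8 in 2e and 1.16 in 3e, against 38.4, 23.5 and 21.2 in C 8w. G6pdx, the entry enzyme of the pentose phosphate pathway, had an FPKM of 5.2 in 2e and 69.5 in 3e, against 7.45, 13.7 and 8.27 in C 8w. The tumors lay on opposite sides of C 8w in these 2 genes, Nnmt being the higher in 2e and G6pdx in 3e. There were 19 genes for which the tumors lay on opposite sides of C 8w, each by at least 1. Mme, Cd36 and 9430069I07Rik were above C 8w in 3e, and the 16 others were above it in 2e, among them the acute phase genes Saa1, Saa2 and Lrg1.

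**Figure D5:**
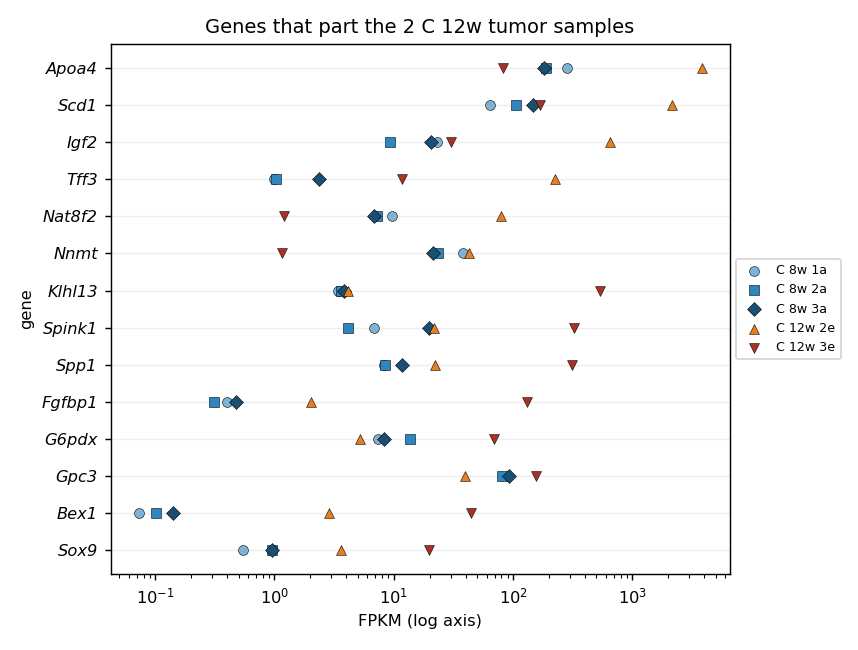
FPKM (x axis, logarithmic) of 14 genes in which the tumor samples differed (y axis), with blue symbols for the 3 C 8w samples and orange and red triangles for 2e and 3e. The first 6 genes are higher in 2e and the other 8 in 3e, and in Apoa4, Nat8f2, Nnmt, G6pdx and Gpc3 the triangles lie on opposite sides of the blue symbols.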

How the data were processed

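RNA sequencing of bulk tissue was used for 5 samples, 2 of C 12w and 3 of C 8w, grouped by the labels. The table holds FPKM as deposited by the authors, 1 column for each of the 8 samples of the series, for 22504 Ensembl mouse genes, and 0 columns from outside the series. Per the submitters' processing notes, Bowtie 0.12.2 and build mm8 were used. Their roles, the quantifier and the annotation are not given in the sources used here. FPKM keeps no counts, so depth and counting error are unknown. The 3 samples of C 8w + A 4w, which had 4 weeks of severe injury after MCLI, entered 1 alternative fit only.

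Genes that reached an FPKM of 1 in 2 or more of the 5 samples were kept, and log2(FPKM + 1) was compared by limma 3.58.1 in R 4.3.3 (lmFit, eBayes with a trend, two-sided) and Benjamini-Hochberg adjustment at a threshold of 0.05. Fold changes of low genes are understated on this scale. The fit was tested on simulated data. No error rates from that test are given here, and no conclusion is drawn from it. The members and the gene lists were chosen with earlier results of these data known, and the lists overlap, so their counts and medians are descriptions. The genes named are the 10 largest rises and 10 largest falls among called genes whose groups did not overlap, the defining and up to 4 largest called genes of each list, the 10 largest differences between 2e and 3e in each direction, and Fah and genes the study names. Other genes named by symbol were chosen after their values were seen. Alternatives were no floor or another floor, a pseudocount of 0.1, median-ratio and quantile scaling, no trend, all 8 samples, the replicate number as a block, genes with at most 2% shared sequence, and each sample left out. Shared sequence was measured on GENCODE M21 transcripts as the share, in percent, of 50-base windows of a gene found in another gene, and 3988 of 10444 matched genes were over 2%. Promoters are from RefSeq on GRCm38.p6. The expression table is on another build and no coordinates were taken from it. Python 3.11.15 was used for the lists, promoters and plots. Some results for single genes are left out here.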

Additional observations from a re-analysis of the deposited data

How the results depend on the processing

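Against 1693 genes called, limma called 1695 with a pseudocount of 0.1, 978 without a floor, 785 with a floor of 10, 1080 with at most 2% shared sequence, 2262 with all 8 samples and, with a limit of 1 on the log2 difference, 579. Leaving out a sample gave between 155 and 5151. The replicate numbers 2 and 3 occur in both groups, and the labels do not say whether the samples were paired. The difference between numbers 2 and 3 in C 12w correlated with that in C 8w at r = -0.182 across genes. A single difference in each group cannot decide whether the samples were paired. The replicate block gave 438 calls, and the crossed pairing, chosen after seeing the data, gave 6. Both tumors lay on the same side of C 8w for 5774 genes, 2355 with a floor of 10, 3621 with at most 2% shared sequence and 6289 to 6522 with a sample left out.

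Of the 121 named genes that were called, none changed direction under an alternative. Many lost the call, which 31, 38 and 46 of them kept without 1a, 2a or 3a. It was kept by 70 without a floor and by 87 with the replicate block. With a pseudocount of 0.1, median-ratio scaling or quantile normalization it was kept by 120, 116 and 106. With a floor of 10, the list medians turned to -0.17 (G1 cyclins, kinases and brakes), -0.090 (bile duct) and -0.18 (Bcl2 family). Quantile normalization gave -0.099 for the Bcl2 family, median-ratio scaling -0.020 for the growth hormone axis, and at most 2% shared sequence 0.17 for the P450 families. With a sample left out, medians ranged from -0.24 to 0.048 (hepatocyte transcription factors), -0.67 to 0.064 (amino acid breakdown and urea cycle) and -0.057 to 0.13 (growth hormone axis). Genes not called, in which 2e and 3e differed, ranged from -1.14 to 1.47 (A1bg), -1.35 to 4.16 (Apoa4), -0.51 to 0.80 (Cps1), -2.83 to 0.72 (Cyp3a11), -1.05 to 2.55 (Fam25c), -0.88 to 1.10 (Gclc), -1.14 to 0.83 (Gpc3), -1.01 to 2.58 (Mme), -2.01 to 3.19 (Nat8f2), -0.76 to 1.03 (Nqo1), -2.58 to 1.13 (Rdh16f2), -1.94 to 1.02 (Saa1) and -1.28 to 1.72 (Saa2). Causes were not tested, apart from the fewer genes or samples in a fit. FPKM without counts leaves the limit set by depth unknown.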

Other observations

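The genes below were chosen after their values were seen, outside the rule for named genes, and for those called both tumors lay on the same side of C 8w. Anxa2, an annexin, had an FPKM of 38.8 in 2e and 32.7 in 3e, against 5.19, 5.09 and 7.67 in C 8w (log2 difference 2.41, SE 0.19, limma adjusted p = 0.00334). Tagln2, an actin-binding protein of the transgelin family, had an FPKM of 51.2 in 2e and 62.2 in 3e, against 7.97, 14.6 and 13.3 in C 8w (log2 difference 2.19, SE 0.26, limma adjusted p = 0.00748). Plaur, the urokinase receptor, had an FPKM of 5.11 in 2e and 7.02 in 3e, against 0.156, 0.318 and 0.221 in C 8w (log2 difference 2.51, SE 0.16, limma adjusted p = 0.00271). These 3 genes were called under every alternative in which they were tested, and so were Klf6 and Gadd45a, an early response factor and a growth arrest gene, at 2.03 and 2.1. S100a11, a calcium-binding protein, had an FPKM of 40.4 in 2e and 81.4 in 3e, against 8.99, 6.32 and 14.1 in C 8w (log2 difference 2.5, SE 0.39, limma adjusted p = 0.0153). Anxa5, another annexin, had an FPKM of 144 in 2e and 280.0 in 3e, against 60.1, 59.2 and 62 in C 8w (log2 difference 1.72, SE 0.28, limma adjusted p = 0.0166). Junb, an AP-1 subunit, had an FPKM of 26.8 in 2e and 18 in 3e, against 5.6, 4.93 and 6.46 in C 8w (log2 difference 1.79, SE 0.20, limma adjusted p = 0.00615). S100a11 and Anxa5 were the higher in 3e and Junb in 2e. Nid1, a basement membrane protein, had an FPKM of 21.6 in 2e and 52.6 in 3e, against 4.0, 4.22 and 3.88 in C 8w (log2 difference 2.79, SE 0.34, limma adjusted p = 0.00832).

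Among genes that fell, Retsat, which saturates retinol, had an FPKM of 83.4 in 2e and 75.2 in 3e, against 359, 303 and 395 in C 8w (log2 difference -2.13, SE 0.17, limma adjusted p = 0.00343). Cyp26a1, which degrades retinoic acid, had an FPKM of 1.86 in 2e and 2.75 in 3e, against 21.4, 14.9 and 17.6 in C 8w (log2 difference -2.52, SE 0.20, limma adjusted p = 0.00321). Both were called under every alternative in which they were tested. Pon1, a paraoxonase secreted by hepatocytes, had an FPKM of 78.1 in 2e and 36.5 in 3e, against 361, 267 and 301 in C 8w (log2 difference -2.5, SE 0.33, limma adjusted p = 0.00974). S100g, a calcium-binding protein, had an FPKM of 6.73 in 2e and 18.5 in 3e, against 82.4, 91 and 85 in C 8w (log2 difference -2.82, SE 0.37, limma adjusted p = 0.0094). Cyp2a5, a member of the P450 list with 37.0% shared sequence, had 2934 in 2e and 6090.3 in 3e against 7546, 0 and 0 in C 8w. Its C 8w values of 0 stood beside a very high one in the same group, and such a listed 0 cannot be read as absence.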
